A study of Mus musculus with 2 samples.

Results

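The 42 genes described here encode the enzymes and carriers of central carbon metabolism, out of 55536 annotated mouse genes in the deposited tables. They were taken by symbol from a fixed list in 6 groups, and no cutoff on a measured value was applied. The list was chosen with earlier results of these data known. The groups were glycolysis with glucose entry (18 genes), lactate formation and export (4), the pentose phosphate pathway (4), the pyruvate dehydrogenase gate (4), the tricarboxylic acid (TCA) cycle (8) and citrate export with its cytosolic partners (4). The RNA was ribosome-depleted total RNA from the nucleoplasm, a fraction the labels also call nuclear, of macrophages grown from the bone marrow of C57BL/6J mice. The cells were given 100 ng/ml lipid A, the toxic core of bacterial lipopolysaccharide and a ligand of Toll-like receptor 4, for 12 h, were washed and kept without it for 12 h, and then received 100 ng/ml again for 50 min. There was 1 group of 2 libraries, with an RNA input of 500 ng for replicate 1 and 1 µg for replicate 2, and replicate cannot be told apart from input. The labels call them biological replicates 1 and 2, but both carry the same donor entry and no separate animals or cultures are named. An SD here thus measures only the spread between these libraries, which may be technical. A p-value of the binomial test sets their difference against counting error only and does not measure biological spread. Untreated cells, cells stimulated once and whole-cell RNA were not analysed here, so each level is a description and none is a response to lipid A.

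Glycolysis splits glucose into pyruvate in the cytosol. Pyruvate is either reduced to lactate and exported or is carried into mitochondria, where the pyruvate dehydrogenase complex turns it into acetyl-CoA for the TCA cycle. The pentose phosphate pathway branches off after the first phosphorylation and yields NADPH and ribose. Macrophages that sense endotoxin are known for a shift towards glycolysis and for a TCA cycle that leaks citrate into the cytosol, where it feeds lipid synthesis. Nuclear RNA holds newly made, partly spliced and detained transcripts, so its levels need not follow those of the cytoplasmic mRNA.

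The libraries held 20612078 and 22772081 counts. Macrophage markers were high, with means over the 2 libraries between 26.3 TPM (Spi1) and 1010 TPM (Lyz2) for all 10 of the list. The 12 markers of other cell types each had a mean at or below 0.455 TPM (S100a8), 7 of them with 0 counts in both libraries. The summed macrophage list was 2808 and 3091 TPM, and the summed list of other cells 0.69 and 0.96 TPM. TPM is a level per transcript length, and protein-coding genes held 21.04% and 21.95% of its total in replicates 1 and 2. Its median was 3.59 TPM over the 12137 protein-coding genes that had at least 10 counts in the 2 libraries together and their 90th percentile was 28.7 TPM. The 42 members took 0.226% and 0.241% of all counts. All had 10 or more counts over both libraries, 34 had 100 or more in each, and a count of 0 elsewhere allows up to 3 counts (0.146 and 0.132 CPM, counting error only). Of the members, 30 lay above the protein-coding median and 4 above the 90th percentile, namely Hk3, Pkm, Gapdh and Aldoa.

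**Figure D1:**
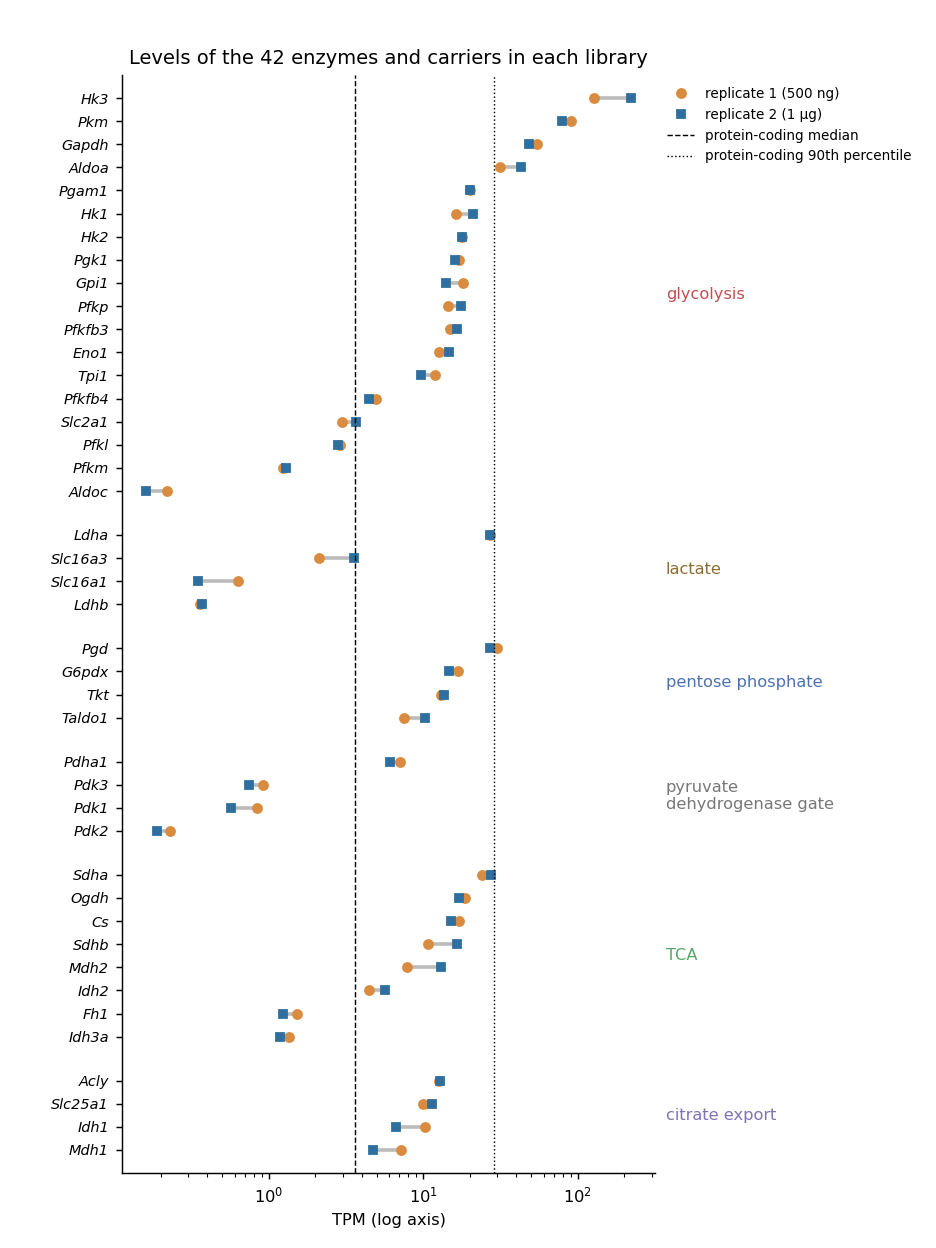
Level of each of the 42 genes in TPM (log axis), grouped by pathway, with a circle for replicate 1, a square for replicate 2 and a line joining them. The dashed line is the median (3.59 TPM) and the dotted line the 90th percentile (28.7 TPM) of protein-coding genes, and only Hk3, Pkm, Gapdh and Aldoa lie beyond the dotted line in both libraries.

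Glucose enters through carriers and is trapped by hexokinases, and 1 gene led in TPM among the listed carriers and 1 among the hexokinases. Slc2a1 encodes the widespread glucose carrier GLUT1 and was at 2.99 TPM in replicate 1 and 3.66 TPM in replicate 2, close to the protein-coding median. Slc2a6, which is no member but belongs to the other genes of glycolysis, encodes the carrier GLUT6 and was at 98.4 and 179 TPM. Whether GLUT6 takes glucose into these cells was not tested. It held 96.5% and 97.8% of the summed TPM of Slc2a1, Slc2a3 and Slc2a6, and Slc2a3 was at 0.61 and 0.38 TPM.

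Hk3, a hexokinase of myeloid cells, had the highest level of all members in both libraries, at 127 and 221 TPM, the 98.6 percentile of protein-coding genes. Hk1, the hexokinase most cells use, was at 16.4 and 21.1 TPM. Hk2, the inducible hexokinase of glycolytic cells, was at 17.9 and 17.8 TPM. Hk3 therefore held 78.7% and 85.0% of the summed hexokinase TPM, a share of 85.0% and 89.5% in the index-based transcript table. Unc5a lies on the opposite strand and overlaps Hk3. It had 417 and 756 counts against 9370 and 16564 for Hk3, and the part of such overlap in the Hk3 value was not tested.

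The sequences upstream of Hk2 and Hk3 are shown because these hexokinases differ in level and in the base composition of their start regions. Both are the 250 bases before the RefSeq start (GRCm38.p6), written 5′ to 3′ on the gene's strand. Hk2 is at chr6:82774455-82774704 and Hk3 at chr13:55021386-55021635, both on the minus strand and outside the genes of the GENCODE annotation. Capitals mark ACGTG, the core bound by hypoxia-inducible factors, and GAGGAA, a core form of the site of the myeloid factor PU.1, each on either strand.
Hk2: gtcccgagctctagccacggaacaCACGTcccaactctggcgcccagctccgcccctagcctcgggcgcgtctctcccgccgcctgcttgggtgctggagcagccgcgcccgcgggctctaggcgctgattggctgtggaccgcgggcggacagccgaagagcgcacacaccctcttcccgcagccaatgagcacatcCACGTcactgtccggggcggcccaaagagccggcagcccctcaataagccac
Hk3: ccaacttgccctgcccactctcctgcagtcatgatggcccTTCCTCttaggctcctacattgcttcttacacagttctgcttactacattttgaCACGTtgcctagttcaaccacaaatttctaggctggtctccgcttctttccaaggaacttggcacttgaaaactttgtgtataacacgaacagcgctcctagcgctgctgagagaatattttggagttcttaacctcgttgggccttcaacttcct
The Hk2 window had a GC content of 69.6% and a CpG observed-over-expected ratio of 0.848, with 2 matches to ACGTG and 0 to GAGGAA. The Hk3 window had a GC content of 47.2% and a CpG ratio of 0.461, with 1 match to each motif. A match describes the letters in the window and is not evidence that a factor was bound.

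Of the phosphofructokinase genes, which carry out the committed step, Pfkp led. Pfkp, the platelet-type subunit, was at 14.4 and 17.6 TPM, Pfkl, the liver-type subunit, at 2.88 and 2.80 TPM, and Pfkm, the muscle-type subunit, at 1.24 and 1.30 TPM. Pfkp thus held 77.8% and 81.1% of their sum. Pfkfb3 and Pfkfb4 make and remove fructose 2,6-bisphosphate, the activator of phosphofructokinase. Pfkfb3 was at 14.9 and 16.6 TPM, above Pfkfb4 at 4.96 and 4.46 TPM, and the ranges of these 2 genes did not overlap. Gpi1, which interconverts the hexose phosphates before this step, was at 18 and 14.1 TPM.

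The members of the lower steps stood between 9.69 and 90.6 TPM, apart from Aldoc. Aldoa, the main aldolase, was at 31.2 and 42.9 TPM, whereas the brain-type Aldoc was at 0.22 and 0.16 TPM (18 and 10 counts). Tpi1, triose phosphate isomerase, was at 11.8 and 9.69 TPM. Gapdh, which makes the NADH of glycolysis, was at 54.2 and 48.3 TPM. Pgk1 and Pgam1, the kinase and the mutase that follow, were at 17 and 16.1 TPM and at 19.9 and 20.0 TPM. Eno1, the common enolase, was at 12.7 and 14.7 TPM. Eno2, known as the neuronal enolase and not a member, was higher in both libraries at 21.9 and 25.1 TPM, and held 61.0% and 60.2% of the summed enolase TPM against 35.3% in each for Eno1. Of the other glycolytic genes, Adpgk, a kinase that uses ADP, ranked after Slc2a6 and Eno2 with 8.47 and 6.38 TPM. Pgk2 and Pklr had 0 counts in the gene-level table, and Pklr held 0.401% and 0.925% of the pyruvate kinase sum in the index-based one. Among 12 copies of members found by name, the most counts were 28.7 (Eno1b, replicate 1), so these held few reads as the authors' counting divided them. Copies under other names were not searched for, and sequence identity was not measured.

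**Figure D2:**
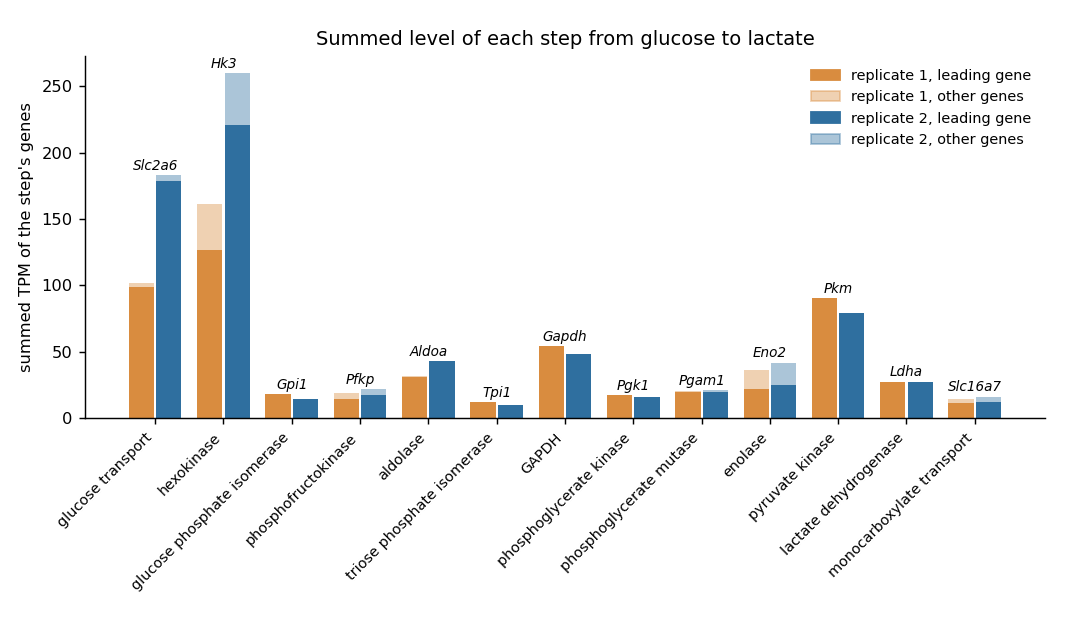
Summed TPM of the genes of each step from glucose transport to lactate export, with orange bars for replicate 1 and blue bars for replicate 2, and with the gene named above each pair in the darker shade. Glucose transport (102 and 183 TPM) and hexokinase (161 and 260 TPM) have the tallest bars, followed by pyruvate kinase (90.6 and 79.4 TPM). The glucose transport bar sums Slc2a1, Slc2a3 and Slc2a6, and the part of each in glucose uptake was not tested.

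Pkm, pyruvate kinase, catalyses the last step and was the second highest member at 90.6 and 79.4 TPM. Its transcripts include 1 of a pair of mutually exclusive exons. Exon 9 gives the M1 form of adult muscle and brain, and exon 10 gives the M2 form of proliferating and activated cells. Both exons are 167 bases long and coding, on the plus strand of GRCm38, exon 9 at chr9:59675029-59675195 and exon 10 at chr9:59675568-59675734. They are printed from the GENCODE M21 transcripts because they define the 2 forms, with capitals at the 64 positions where they differ (61.7% identical). The isoform values below are estimates for whole transcripts, of 2432 bases with the M2 exon and 2041 bases with the M1 exon. These transcripts thus also differ outside the exons, and the part of that difference in the values was not tested.
M1 exon: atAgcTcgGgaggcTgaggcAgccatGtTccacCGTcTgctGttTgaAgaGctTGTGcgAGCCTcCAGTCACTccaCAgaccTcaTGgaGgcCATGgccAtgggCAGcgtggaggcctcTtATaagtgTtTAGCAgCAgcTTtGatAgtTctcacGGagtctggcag
M2 exon: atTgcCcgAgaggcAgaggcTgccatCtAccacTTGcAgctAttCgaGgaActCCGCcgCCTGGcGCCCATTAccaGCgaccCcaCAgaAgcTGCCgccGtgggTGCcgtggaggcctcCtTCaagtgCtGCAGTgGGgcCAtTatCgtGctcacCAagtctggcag
The transcript with the M2 exon, Pkm-201, was at 76.7 and 59.8 TPM, or 84.6% and 75.3% of Pkm transcript TPM. The transcript with the M1 exon, Pkm-202, was at 6.10 and 11.4 TPM, or 6.74% and 14.4%. The M2 form was thus 12.6 times the M1 form in replicate 1 and 5.24 times in replicate 2, with 13.5 and 5.81 times in the index-based table. The M2 form led in both libraries, while the size of the lead differed between them by more than 2-fold. Gm49759, a gene awaiting experimental support on the same strand, spans both exons and had 872 and 817 counts. Its part in the isoform values was not tested.

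Ldha led the lactate group, and its 2 carriers were low. Ldha, the muscle-type lactate dehydrogenase subunit that favours lactate, was at 27.0 TPM in both libraries. Ldhb, the heart-type subunit, was at 0.36 and 0.37 TPM (10 counts in each), so Ldha held 98.7% and 98.6% of the lactate dehydrogenase sum. Slc16a3 encodes MCT4, the exporter of glycolytic cells, and was at 2.11 and 3.55 TPM. Slc16a1 encodes MCT1 and was at 0.63 and 0.35 TPM. Among the other genes of the step, Slc16a7, which encodes MCT2, was at 11.5 and 12.2 TPM and held 80.7% and 75.8% of the sum of the 3 carriers. Bsg, the chaperone of MCT1 and MCT4 (basigin), was at 21.9 and 25.4 TPM. Ldhd, a D-lactate dehydrogenase, was at 0.87 and 0.91 TPM, and Ldhc had 0 counts in the gene-level table and 0.128% and 0.296% of the lactate dehydrogenase sum in the index-based one.

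The window upstream of Ldha (chr7:46845554-46845803, plus strand, GRCm38.p6, RefSeq start) is shown because it held the most ACGTG matches of all the members' windows, 5 counted on both strands. Capitals mark them, and an overlap of matches on opposite strands reads CACGTG. The window lies within an intron of a longer Ldha transcript of the annotation.
Ldha: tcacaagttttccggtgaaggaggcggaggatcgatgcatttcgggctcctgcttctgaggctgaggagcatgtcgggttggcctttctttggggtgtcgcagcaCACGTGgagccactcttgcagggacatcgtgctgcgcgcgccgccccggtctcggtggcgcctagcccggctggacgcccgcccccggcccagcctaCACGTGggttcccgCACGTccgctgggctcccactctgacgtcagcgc
Over the members, ACGTG was found in 27 of 62 windows (43.5%), against 18% of 20150 windows of protein-coding genes. The members' windows were richer in CpG, with a median ratio of 0.669 against 0.551. Within windows with a ratio of at least 0.6, the shares were 51.2% of 41 and 25.1% of 9293. GAGGAA was in 21% of member windows and 22.5% of all. The TATA box core TATAAA was in 0 of 62 and in 11.2% of all. Some members have several overlapping windows (6 for Ogdh). By gene, 19 of 41 members (46.3%) and 20.2% of all genes held ACGTG, and Idh3a had no window in the RefSeq table.

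The 4 pentose phosphate genes were all above the protein-coding median. Of the oxidative branch, G6pdx, which makes the first NADPH, was at 16.8 and 14.7 TPM, and Pgd, which makes the second, at 29.9 and 27.0 TPM. Of the non-oxidative branch, which rearranges sugars, Tkt (transketolase) was at 13.0 and 13.6 TPM and Taldo1 (transaldolase) at 7.53 and 10.3 TPM. The oxidative pair was above the non-oxidative pair in both libraries. Of 9 other genes of the pathway, 3 lay above the protein-coding median. Rpe, the ribulose phosphate epimerase, was at 8.70 and 9.86 TPM, Pgls, the lactonase between G6pdx and Pgd, at 3.41 and 5.83 TPM, and H6pd, the form in the endoplasmic reticulum, at 4.07 and 4.68 TPM.

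At the entry to the TCA cycle, the enzyme subunit was measured well above the kinases that switch it off. Pdha1, the catalytic subunit of pyruvate dehydrogenase, was at 7.04 and 6.10 TPM. The kinases Pdk1, Pdk2 and Pdk3 were at 0.84 and 0.57 TPM, at 0.23 and 0.19 TPM (5 and 13 counts), and at 0.91 and 0.74 TPM, and Pdk4 had 0 counts in the gene-level table. By index-based TPM Pdk4 held 25.3% and 9.1% of the summed kinase TPM, above Pdk2 at 4.29% and 8.75%, so its level depended on the table. The summed kinases, 1.98 and 1.5 TPM, stayed below Pdha1 in both libraries. The 3 highest of the other genes of the gate stood above Pdha1. Mpc1, a subunit of the mitochondrial pyruvate carrier, was at 18.2 and 17.6 TPM, Dld, the E3 subunit shared with other complexes, at 19.5 and 15.7 TPM, and Pdhb, the partner of Pdha1, at 11.1 and 9.61 TPM. Pcx, which instead carboxylates pyruvate to oxaloacetate, was at 0.18 and 0.16 TPM.

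The TCA genes ran from 1.18 to 27.4 TPM. Cs, which joins acetyl-CoA to oxaloacetate, was at 16.9 and 15.2 TPM. The isocitrate dehydrogenases of the mitochondrion were low among the members, with the NADP-dependent Idh2 at 4.43 and 5.61 TPM and Idh3a, the catalytic subunit of the NAD-dependent enzyme, at 1.34 and 1.18 TPM. Its partner Idh3b was at 19.4 and 18.7 TPM, so Idh3a made up 4.97% and 4.78% of the summed TPM of the 3 subunits. Ogdh, the E1 subunit of oxoglutarate dehydrogenase, was at 18.5 and 16.9 TPM. Sdha, the flavoprotein of succinate dehydrogenase, was the highest TCA member at 24.0 and 27.4 TPM, and its iron-sulfur partner Sdhb was at 10.7 and 16.5 TPM. Mdh2, the malate dehydrogenase that closes the cycle, was at 7.85 and 12.9 TPM.

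Fh1, fumarate hydratase, was at 1.53 and 1.23 TPM and, by counts, depended more on the table than any other member. It had 69 and 70 counts in the gene-level table and 413 and 290 in the index-based one, 5.06 times as many, where the median ratio over members was 1.34 and the next highest was 2.11 (Pfkm). Over protein-coding genes that had at least 100 counts in each library that ratio had a median of 1.41 and a 90th percentile of 1.79. Among protein-coding genes Fh1 stood at the 30.8 percentile by the gene-level table and at the 43.1 percentile by the index-based one.
Of 11 other TCA genes, 8 lay above the protein-coding median. Dlst, the E2 subunit of oxoglutarate dehydrogenase, was at 43.3 and 32.0 TPM.

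Citrate leaves mitochondria through the carrier Slc25a1, at 9.92 and 11.4 TPM, and is split into acetyl-CoA and oxaloacetate by Acly, at 12.6 and 12.8 TPM. The cytosolic dehydrogenases Idh1 and Mdh1, which make NADPH and pass on reducing equivalents, were at 10.3 and 6.69 TPM and at 7.12 and 4.75 TPM. For Mdh1 the 2 scales differed, since its counts were 244 and 256. The deposited mean transcript length of Mdh1 was 1251 bases in replicate 1 and 1767 in replicate 2, and Mdh1-201, its leading transcript of 2122 bases, took 44.5% and 77.3% of its transcript TPM. The scales also differed for other members, among them G6pdx and Pdk2, with TPM lower and counts higher in replicate 2. Their mean lengths were 1813 and 2189 bases for G6pdx and 879 and 2246 bases for Pdk2. Among 10 other genes, Glud1, glutamate dehydrogenase, was at 18.2 and 13.8 TPM, and Slc25a10, the dicarboxylate carrier, at 8.70 and 11.9 TPM.

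Set side by side, the members of glycolysis, the pentose phosphate pathway and the TCA cycle were of similar level, and those of the lactate and gate groups were lower. Glycolysis had a median of 15.7 and 16.3 TPM, pentose phosphate 14.9 and 14.1 TPM, the TCA cycle 9.30 and 14.1 TPM, and citrate export 10.1 and 9.05 TPM. The lactate group had 1.37 and 1.96 TPM, although its member Ldha was at 27.0 TPM in both libraries, and Slc16a7, the leading carrier, is no member. The gate had 0.875 and 0.655 TPM, where 3 of 4 members are the inhibitory kinases. Each group other than the lactate group and the gate had its median above the protein-coding medians of 3.55 and 3.58 TPM. All these medians were lower in the index-based table, for example 9.66 and 4.14 TPM for glycolysis.
On the log2(TPM + 0.1) scale, glycolysis exceeded pentose phosphate by 0.14 (0.08 in replicate 1 and 0.20 in replicate 2), the TCA cycle by 0.46 (0.76 and 0.22) and citrate export by 0.76 (0.63 and 0.89). It exceeded the lactate group by 3.65 (3.63 and 3.65) and the gate by 4.23 (4.01 and 4.45). The difference to pentose phosphate became -0.32 with means in place of medians. Genes of a group are not replicates, so no test was made, and the members of glycolysis alone spanned 0.19 to 174 TPM on average, which includes the range of every other group. All 4 members above the 90th percentile belonged to glycolysis.

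The members' median share of transcripts annotated as retaining an intron was below that of all genes. The share was the percent of a gene's transcript TPM in such transcripts. It could be given for 26 members, those with such a transcript and 100 or more counts in both libraries, and had a median of 11.7% (11.1% and 11.3% in replicates 1 and 2). The median over 5156 protein-coding genes of the same kind was 21.4% (19.9% and 22.8%). Pfkp was the 1 member of 26 (3.85%) with more than 50% in such transcripts, against 11.3% of all these genes. This is a description of counts and medians, with no test.
Pfkp had 69.0% and 70.6% in retained-intron transcripts, spread over several of them, with the 8681-base Pfkp-212 at 27.0% and 23.8%. Idh3a, left out above for its 70 and 67 counts, had 83.6% and 80.5%, mainly in Idh3a-203 with 77.6% and 71.2%. At the other end, Pgam1 had 0.552% and 1.10%, Pdha1 0.853% and 0.984%, Hk1 1.65% and 1.52%, Ldha 1.11% and 2.81%, and Pgk1 2.70% and 1.25%.
By group, the median was 11.6% over 13 glycolysis genes, 12.7% over 4 pentose phosphate genes and 17.3% over 5 TCA genes.

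Processed transcripts and targets of nonsense-mediated decay held large shares of a few members and led in Tkt. Tkt had 67.3% and 74.0% of its TPM in Tkt-209, an annotated processed transcript with no coding frame, and 7.18% and 16% in coding transcripts. Hk3 had 44.7% and 43.0% in the coding Hk3-208, 28.3% and 26.1% in Hk3-204, annotated as a target of nonsense-mediated decay, and 20.5% and 23.2% in the 639-base processed transcript Hk3-205. Hk2 had 37.9% and 33.3% in the processed transcript Hk2-202, which the index-based table gave 17.1% and 0.0%. Of the 42 leading transcripts, 39 were coding, 2 retained introns (Pfkp and Idh3a) and 1 was a processed transcript (Tkt). The same transcript led in the index-based table for 39 members. Some shares differed widely between the libraries. Pfkm-205 took 100% of Pfkm transcript TPM in replicate 1 and 3.82% in replicate 2, and Mdh2-203 took 0.0% and 29.4% of that of Mdh2.

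**Figure D3:**
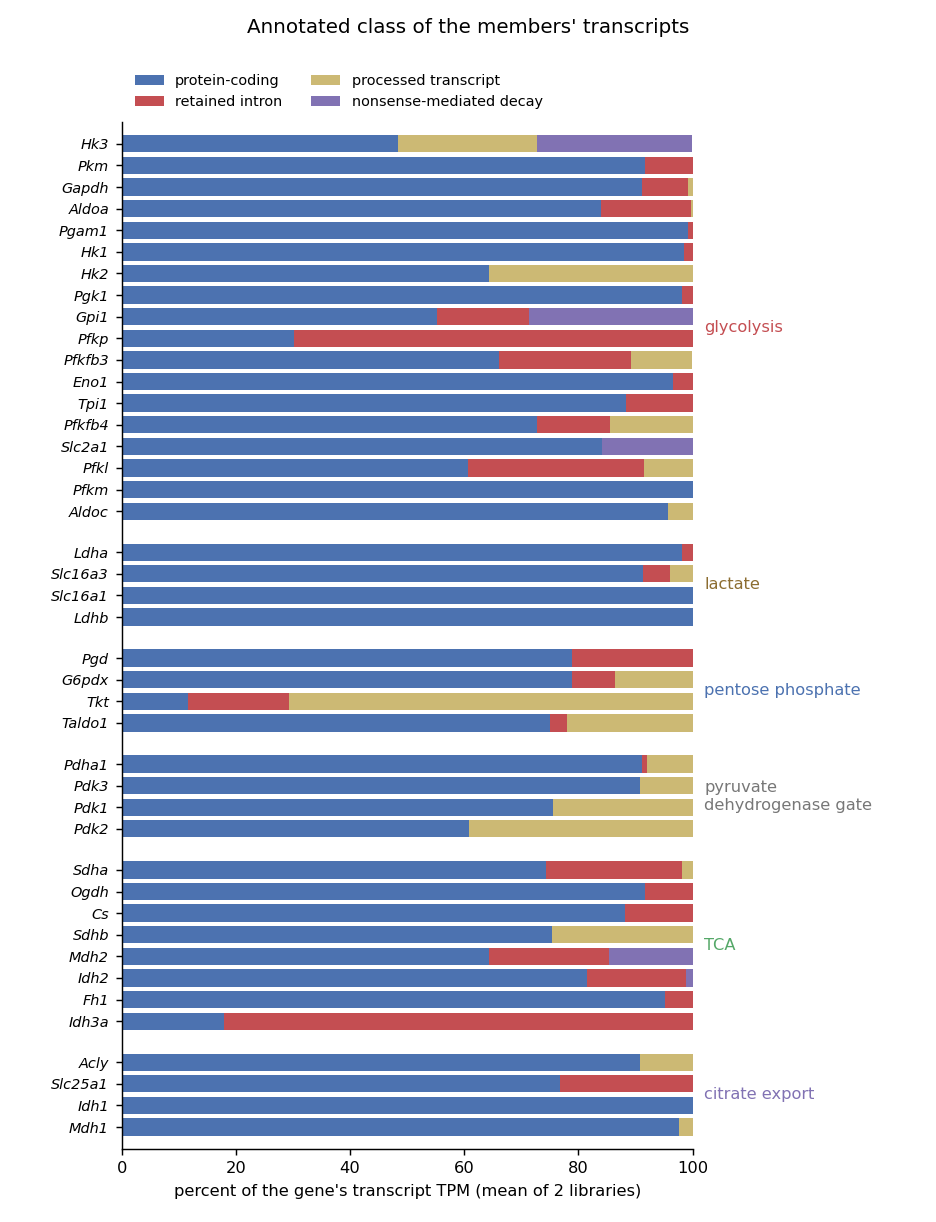
Share of each member's transcript TPM by annotated transcript class (percent, mean of 2 libraries), grouped by pathway. Pfkp and Idh3a show mostly retained-intron transcripts and Tkt mostly a processed transcript, while Ldha, Pgk1 and Pgam1 are almost wholly coding.

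Between the 2 libraries, 0 of 42 members passed a two-sided exact binomial test on counts at an adjusted p under 0.05 together with a ratio of at least 2-fold. Over all genes 4.84% passed (1090 of 22502, Benjamini-Hochberg adjusted), and among genes that had at least 100 counts in each library 1.97% passed (170 of 8641), where 34 members were tested. With index-based counts 7.16% of all genes and 0 members passed. The test compares these libraries and covers counting error only. At an unadjusted p under 0.05 there were 20 members (18 of the 34), beside 33.3% of all genes tested and 61.6% of those with at least 100 counts in each library, and edgeR's exact test with the dispersion set to 0.04 or 0.01 also called 0. None of the other genes of the pathways passed in either direction, and edgeR's exact test called 0 of them at either dispersion. By group this was 0 of 20 (glycolysis), 4 (lactate), 9 (pentose phosphate), 10 (gate), 11 (TCA cycle) and 10 (citrate export). These sizes include 7 genes with 0 counts in both libraries, which were not tested, and genes with very few counts could not pass. Of the 57 that had counts, 30 were at an unadjusted p under 0.05. As above, that share was 33.3% over all genes tested and 61.6% over those with at least 100 counts in each library.

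Smaller differences were frequent and went both ways. Without the fold threshold, 10 members were higher and 9 lower in replicate 2 at an adjusted p under 0.05. Among members with 100 or more counts in both libraries this was 50.0% (17 of 34), close to the 53.1% of all such genes. The members' median log2 ratio (replicate 2 over replicate 1) was -0.01, beside 0.02 for all genes tested.
With a threshold of 1.5-fold, 10.3% of all genes with at least 1 count passed, and no share among genes with more counts was taken. Of the members, 6 passed (14.3%). Higher in replicate 2 were Hk3 by 0.75 on the log2 scale (9370 and 16564 counts), Taldo1 by 0.63 (219 and 356) and Sdhb by 0.63 (325 and 528). Lower were Slc16a1, at -0.88 (88 and 50 counts), Idh1, at -0.70 (698 and 453), and Pdk1, at -0.61 (116 and 80). The adjusted p of the exact binomial test was 2.88e-06 for Taldo1, 5.71e-09 for Sdhb, 0.00247 for Slc16a1, 1.08e-14 for Idh1 and 0.0181 for Pdk1. Slc2a6, which led the listed glucose carriers, was higher in replicate 2 by 0.87 (6934 and 13285 counts), so it and Hk3 lay on the same side.
By contrast Ldha (-0.02), Hk2 (0.03), Pgam1 (-0.01), Sdha (-0.01) and Mdh1 (0.00) had log2 ratios near 0. Pkm, at -0.24, was 1.18-fold lower in replicate 2, with an adjusted p of 5.31e-18 in the exact binomial test. Mdh2 (0.58), Aldoa (0.45), Slc16a3 (0.44), Hk1 (0.32), Slc2a1 (0.29), Tkt (0.20) and Pfkp (0.17) were the remaining members with higher counts at an adjusted p under 0.05. Ogdh (-0.31), Pdha1 (-0.30), Tpi1 (-0.29), Pgd (-0.21) and Cs (-0.17) were the remaining ones with lower counts. Aldoc (-0.89) and Pdk2 (1.22) had ratios as large with 18 and 10 counts and 5 and 13 counts, and did not pass.

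**Figure D4:**
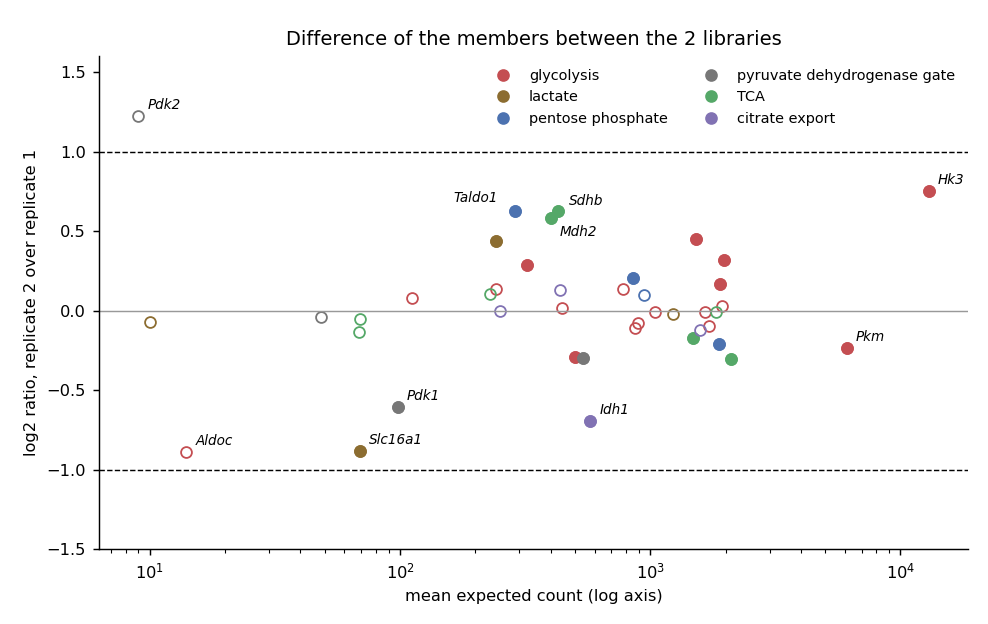
Log2 ratio of counts (replicate 2 over replicate 1) against the mean expected count (log axis) for the 42 genes, coloured by pathway, filled where the adjusted p of the exact binomial test was under 0.05. The dashed lines mark 2-fold, and the 1 gene beyond them is Pdk2, with 5 and 13 counts.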

How the data were processed

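For each library there was 1 table of genes and 2 of transcripts, made on mm10 with GENCODE M21 and without pooling of replicates, per the file headers. The deposited expected counts are estimated reads per gene or transcript and need not be whole. The deposited TPM divides counts by effective length and scales each table to a common total. Not given in the sources used here are the aligner, the quantifiers and whether counting used strand. Rows naming no annotated gene were left out (0.144% and 0.081% of counts).

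Expected counts were rounded, and the libraries were compared gene by gene by exact binomial tests (two-sided) on their TMM-scaled shares (edgeR 4.0.16 in R 4.3.3), Benjamini-Hochberg adjusted over 22502 genes with at least 1 count. Ratios had 0.5 added to each count. Since 1 library stood against 1, edgeR's quasi-likelihood test and DESeq2 (version 1.42.0, used for its size factors alone) had no residual degrees of freedom to work with. Instead, edgeR's exact test with the dispersion set to 0.04 or 0.01 served as an alternative. The binomial script was checked on simulated counts. Pathway levels are medians of log2(TPM + 0.1), on which differences of low genes are understated. Retained-intron shares were taken for genes that had at least 100 counts in each library. For the symbol Aldoa, which has 2 identifiers, the one with more counts was used.

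The members and lists were chosen with earlier results of these data known. All 42 members are named. Of the other genes of each pathway, the 3 with the highest mean TPM are named, except for items that are not reported here, and further ones were named after their values were seen. Alternatives covered the table used, the pseudocount, count minimums, the scaling, the error model, the fold threshold and leaving out each library.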

Additional observations from a re-analysis of the deposited data

How the results depend on the processing

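No paired analysis was possible because there was 1 group. The alternatives, none of which was added later, kept the sign of each pathway difference except that glycolysis against pentose phosphate (0.141) became -0.322 with means, and it was 0.042 in the index-based table. The difference to the gate (4.23) was 3.67 in the index-based table, 3.27 with a pseudocount of 1 and 3.46 with means. The difference to the lactate group (3.65) was 3.16, 2.84 and 2.52 under the same settings, and that to citrate export (0.755) was 0.421 with means. Leaving out each library gave 0.084 to 0.205 against pentose phosphate, 0.215 to 0.762 against the TCA cycle and 4.01 to 4.45 against the gate. Members called rose from 0 to 6 at 1.5-fold and stayed at 0 under the other alternatives, while calls over all genes ranged from 166 (edgeR's exact test, dispersion 0.04) to 2310 (1.5-fold). The retained-intron median of members (11.7%) was 14.3% in the index-based table, 6.49% as a share of expected counts, and 11.1% to 11.3% leaving out each library. It lay below that of all genes in each table and weight (27.4% and 11.2%). Depth limits Pdk2, Ldhb and Aldoc most, at 18 or fewer counts in a library.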

Other observations

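Subunits of shared complexes differed in nuclear level. In succinate dehydrogenase, Sdha held 48.1% and 46.2% of the summed TPM of the 4 subunits, Sdhb 21.5% and 27.9%, Sdhc 15.6% and 13.7%, and Sdhd 14.8% and 12.2%. In the oxoglutarate dehydrogenase complex, Dlst held 53.2% and 49.6%, and Ogdh and Dld shared the rest. In the pyruvate dehydrogenase complex, Dld held 46.2% and 43.9% and Dlat, the E2 subunit, 4.37% and 6.28%. By TPM the order Dld, Pdhb, Pdha1 was the same in both libraries, while Dlat and Pdhx changed places. By counts Dlat (224 and 178) was above Pdhx (208 and 157) in both, so that change was seen on the TPM scale only.

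Of the 42 members, 15 overlap another annotated gene with 10 or more counts over both libraries, 13 of them on the opposite strand. G6pdx overlaps Ikbkg (771 and 790 counts), Pfkm overlaps Senp1 (1210 and 1114 counts, more than the 106 and 118 of Pfkm) and Pfkp overlaps Pitrm1 (590 and 530 counts). Counting by strand is not stated, and the part of these neighbours in the members' values was not tested.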
